A study of Mus musculus with 4 samples.

Results

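The genes of cholesterol and fatty acid synthesis were described in the colon epithelium of mice fed heme, the iron pigment that gives red meat its colour. The set was a list of 37 genes, of which 24 belong to the sterol branch and 13 to the fatty acid branch. A gene was measured where at least 1 probe set of the array named it and no other gene, and its value was the mean of those probe sets. This held for 36 of the 37 genes, with 40 probe sets, out of 19938 genes measured on the array. Acat2 had no such probe set and was not analysed here, so 23 sterol genes and 13 fatty acid genes remained.

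Surface cells and crypt cells had been collected by laser capture microdissection, in which chosen cells are cut out of a section under a microscope, from rolled middle colon. The heme surface group and the heme crypt group were pools from 3 male C57BL/6 mice aged 11 weeks, which received heme at 0.5 µmol/g for 14 days in a high fat, low calcium diet. The control surface group and the control crypt group were pools from 4 such mice on the same diet without heme, with 40% of energy as fat in both diets. Each of the 4 groups was 1 pool on 1 array, and the same mice gave both the surface and the crypt pool of a diet. There is therefore no replicate error, no test was possible, and every difference below compares 2 pools and not the variation between mice.

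Cells make cholesterol from acetyl-CoA through mevalonate, farnesyl diphosphate and squalene, and make fatty acids from acetyl-CoA through malonyl-CoA, followed by elongation and desaturation. The genes of both routes are switched on by the SREBP transcription factors, which are held in the endoplasmic reticulum with their escort Scap by the Insig proteins when sterols are plentiful. In the intestine these routes supply the membranes of a rapidly renewed epithelium, and part of the cholesterol and fatty acid need is met by uptake from food and blood.

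Values are on the log2 scale, where a difference of 1 is 2-fold. A gene was called higher or lower when its groups differed 2-fold or more and its level was 5.75 or above on 1 or more of the arrays entering the comparison. This floor is the median level over all genes and arrays. All 36 genes lay over the floor on all 4 arrays, and the lowest value was 6.36, for Acacb on the control crypt array. The same rules were applied to all genes over the floor, and the share of all genes they called is given where a count under a rule first appears. As bulk pools, the arrays cannot tell fewer cells of a type from less RNA per cell.

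The arrays had medians between 5.42 and 5.54 over 35556 probe sets. Of 11 surface colonocyte markers, 10 were called higher in surface cells on each diet, relative to crypt cells, and all 9 crypt base markers measured were called lower. Of all genes, 15.3% were called higher in surface cells on heme and 12% on the control diet, and 16.5% and 13.5% lower. Of 11 pan-epithelial genes none was called in either heme comparison, against 5.63% of all genes in surface cells and 2.97% in crypt cells. Of 9 adipocyte markers measured, Adipoq, Plin1, Lep and Retn were below the floor on all 4 arrays, Fabp4 and Pck1 were over it on all 4, and Cidec, Car3 and Lpl were over it on some. Smooth muscle and fibroblast markers summed to a level of 11.92 in heme surface cells and 12.20 in control surface cells, and of 11.70 in heme crypt cells and 12.55 in control crypt cells.

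**Figure D1:**
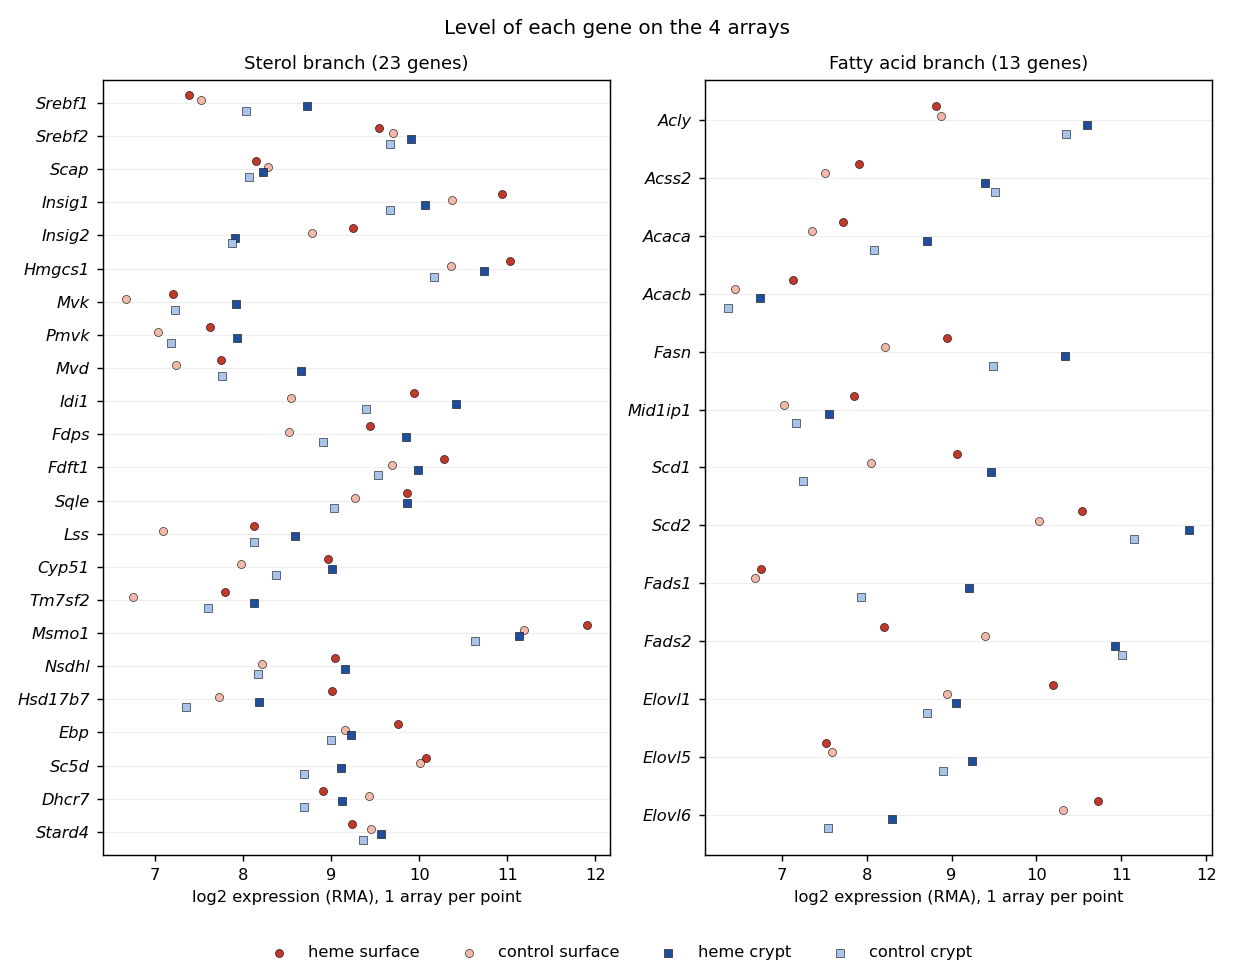
Log2 expression (RMA) of the 23 sterol genes (left) and 13 fatty acid genes (right), with 1 point per array and points of a gene offset vertically. Circles are surface cells and squares crypt cells, dark for heme and pale for control. On the deposited scale, both surface points of Elovl6 lie right of its crypt points, and both crypt points of Fads1, Fads2, Acly and Elovl5 lie right of their surface points.

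Most genes for enzymes of cholesterol synthesis stood higher in heme surface cells than in control surface cells. Of the 23 sterol genes, 18 were above 0 for heme against control in surface cells, against 48.5% of all genes, and 4 were called higher, against 3.62% of all genes. At a lower bar of 1.5-fold, 11 of the 23 were higher, against 10.5% of all genes. None was lower at 1.5-fold, which 7.92% of all genes were. The sterol branch had a median difference of 0.58, and the median of all genes was -0.015.

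In crypt cells the sterol genes lay on one side of 0, mostly by small amounts. All 23 were above 0 for heme against control, against 51.5% of all genes, with values from 0.037 to 1.02 and a median of 0.52. The median of all genes was 0.010. At 1.5-fold, 10 of the 23 were higher, against 5.89% of all genes. Idi1 was called higher, where 1.78% of all genes were, and none was called lower, where 1.19% of all genes were. The spread was narrower than in surface cells, with quartiles (lower to upper) of 0.41 to 0.79 in crypt cells and 0.27 to 0.88 in surface cells.

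Among the regulators, the genes for SREBP and its escort were slightly below 0 in surface cells and above 0 in crypt cells. Srebf1, which encodes the SREBP forms that chiefly drive fatty acid synthesis, had a level of 7.38 in heme surface cells against 7.52 in control surface cells, and of 8.72 in heme crypt cells against 8.03 in control crypt cells. It was thus nearly level between diets at the surface and higher by 0.69 in the crypt. Srebf2, which encodes the form that chiefly drives cholesterol synthesis, differed by -0.17 in surface cells and by 0.25 in crypt cells. The escort gene Scap differed by -0.14 and 0.16 in the same order. With arrays centred on ribosomal protein genes, the surface differences of Srebf1 and Scap were 0.028 and 0.021.

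The Insig genes encode the proteins that retain SREBP, and Insig1 is itself a target of SREBP. Insig1 had 10.94 in heme surface cells against 10.37 in control surface cells, and 10.07 in heme crypt cells against 9.67 in control crypt cells. Insig2 had 9.25 in heme surface cells against 8.78 in control surface cells, and 7.91 in heme crypt cells against 7.87 in control crypt cells. Both genes were higher on heme in surface cells, by 0.58 and 0.47, while in crypt cells Insig1 differed by 0.40 and Insig2 by 0.037.

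The mevalonate arm was higher on heme in both compartments, with all 6 genes measured above 0 in each. The median was 0.63 in surface cells and 0.82 in crypt cells. Idi1, which encodes the isomerase that makes the allylic isoprene unit, had 9.94 in heme surface cells against 8.55 in control surface cells, and 10.42 in heme crypt cells against 9.40 in control crypt cells. This was a 2.63-fold difference in surface cells and a 2.03-fold difference in crypt cells. Its 2 probe sets gave 1.39 and 1.40 in surface cells, and 1.03 and 1.01 in crypt cells. After quantile normalization over the 4 arrays the crypt difference was 0.93, below 2-fold.

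Fdps, which encodes farnesyl diphosphate synthase, came next in both compartments among the genes of this arm. Its level was 9.44 in heme surface cells against 8.52 in control surface cells, and 9.85 in heme crypt cells against 8.91 in control crypt cells. Mvd, which encodes the decarboxylase that closes the mevalonate steps, had 7.75 in heme surface cells against 7.23 in control surface cells, and 8.65 in heme crypt cells against 7.76 in control crypt cells. Hmgcs1, the synthase that makes the precursor of mevalonate, differed by 0.67 in surface and 0.57 in crypt cells. The mevalonate kinase gene Mvk differed by 0.54 and 0.70, and the phosphomevalonate kinase gene Pmvk by 0.58 and 0.75.

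Of the 11 genes from squalene to cholesterol, 10 were above 0 in surface cells with a median of 0.72, and all 11 in crypt cells with a median of 0.50. Hsd17b7 encodes a reductase acting in the removal of sterol methyl groups. Its level was 9.01 in heme surface cells against 7.73 in control surface cells, and 8.18 in heme crypt cells against 7.35 in control crypt cells. Tm7sf2, a sterol reductase gene, had 7.80 in heme surface cells against 6.74 in control surface cells, and 8.12 in heme crypt cells against 7.60 in control crypt cells. Lss, which encodes the cyclase that forms lanosterol, had 8.12 in heme surface cells against 7.09 in control surface cells, and 8.59 in heme crypt cells against 8.13 in control crypt cells. For Tm7sf2 and Lss the control surface array was the lowest of the 4, and for Hsd17b7 it was the control crypt array. With 32 added to the linear values before taking logs, the surface differences of Tm7sf2 and Lss were 0.87 and 0.88, below 2-fold. That of Lss was also below 2-fold after quantile normalization (0.96) and with arrays centred on pan-epithelial genes (0.99).

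Just under 2-fold in surface cells was Cyp51, the lanosterol demethylase gene, with 8.96 in heme surface cells against 7.98 in control surface cells, and 9.003 in heme crypt cells against 8.38 in control crypt cells. Nsdhl, which encodes a dehydrogenase of the same demethylation series, had 9.04 in heme surface cells against 8.21 in control surface cells, and 9.15 in heme crypt cells against 8.17 in control crypt cells. The 2 heme arrays were thus above the 2 control arrays for both genes. Sqle, which encodes the rate-limiting squalene epoxidase, had 9.86 in heme surface cells against 9.27 in control surface cells, and 9.86 in heme crypt cells against 9.03 in control crypt cells.

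The heme minus control difference was 0.72 in surface and 0.50 in crypt cells for the methyl oxidase gene Msmo1, 0.61 and 0.23 for the isomerase gene Ebp, and 0.58 and 0.45 for the squalene synthase gene Fdft1. The 2 probe sets of Fdft1 differed by 0.79 and 0.38 in surface cells. The pair of enzymes that act last on the route through dehydrocholesterol stood apart in surface cells. Dhcr7, the final reductase gene, had 8.90 in heme surface cells against 9.43 in control surface cells, and 9.12 in heme crypt cells against 8.69 in control crypt cells. Sc5d, the desaturase gene of the step before it, had 10.08 in heme surface cells against 10.01 in control surface cells, and 9.11 in heme crypt cells against 8.69 in control crypt cells. Sc5d in surface cells lay on either side of 0 by scaling, from -0.10 to 0.23, whereas Dhcr7 stayed between -0.62 and -0.37. Stard4, which encodes a cytosolic sterol carrier, differed by -0.22 in surface cells and by 0.20 in crypt cells.

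**Figure D2:**
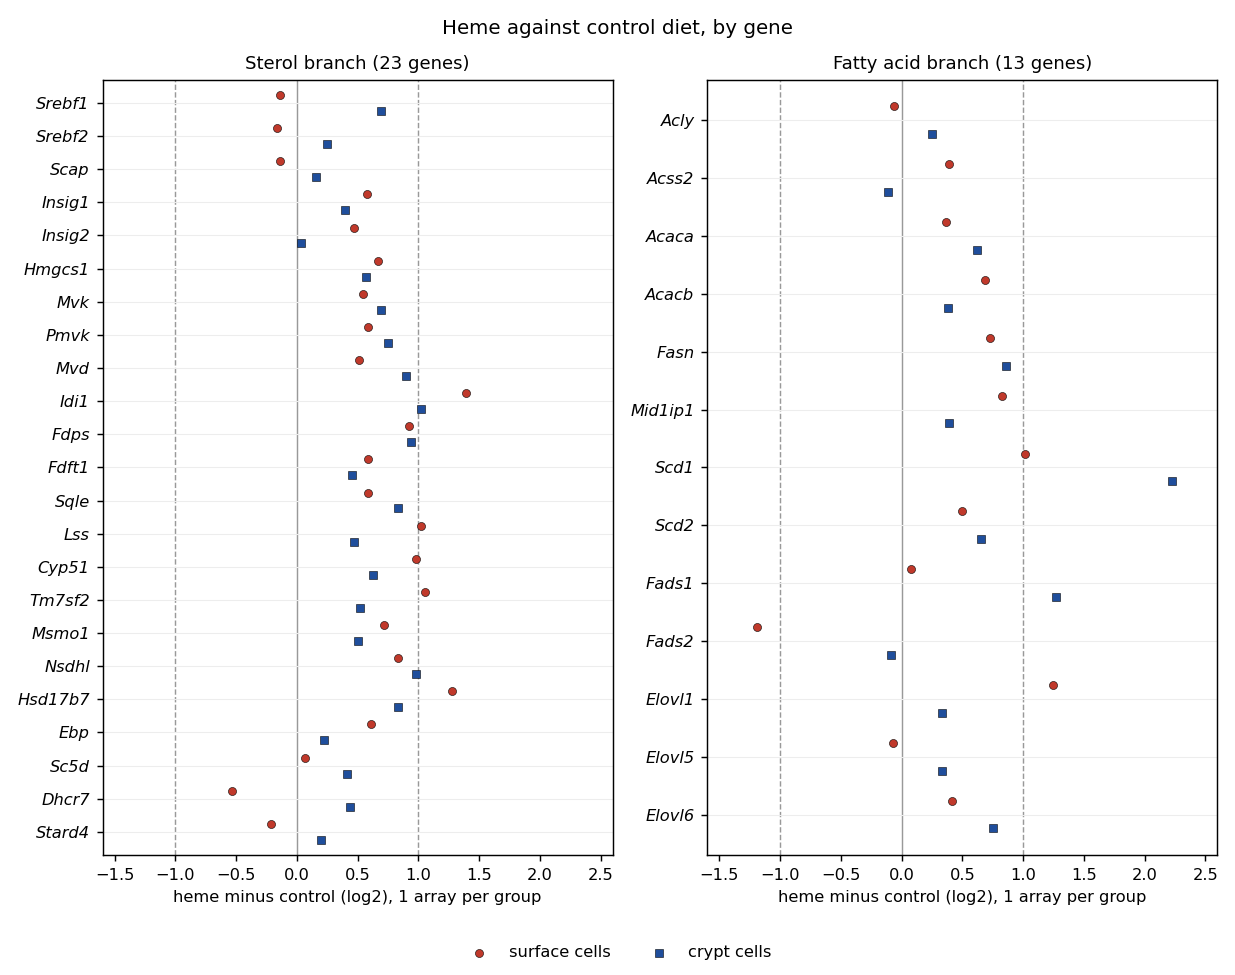
Heme minus control difference (log2) of each gene in surface cells (circles) and crypt cells (squares), 1 array per group, with dashed lines at 2-fold. All 23 sterol genes lie above 0 in crypt cells under every scaling run, while Dhcr7 at -0.53 and Fads2 at -1.19 lie furthest left in surface cells.

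Of the 23 sterol genes, 18 were above 0 in both compartments, against 32% of all genes over the floor in both. The number higher by at least 1.5-fold in both was 6, against 1.85% of all genes, and Idi1 alone was 2-fold or more higher in both, where 0.426% of all genes were. Scd1 was the only fatty acid gene to be so. In the heme crypt pool, other markers moved as well. Of 11 mitosis markers measured, 9 were called higher, with a summed level of 12.42 in heme crypt cells and 11.11 in control crypt cells. Of 11 surface colonocyte markers, 6 were called higher, with 12.35 in heme crypt cells and 11.79 in control crypt cells. Of 12 smooth muscle and fibroblast markers, 3 were called lower and all 12 were below 0. Of 5 immune markers over the floor, all were below 0 and 2 were called lower. Of 6 endothelial markers over it, all were below 0 and 1 was called lower. Of 9 crypt base markers 8 were below 0 and 1 was called lower. The part of these markers in the sterol and fatty acid results was not tested.

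**Figure D3:**
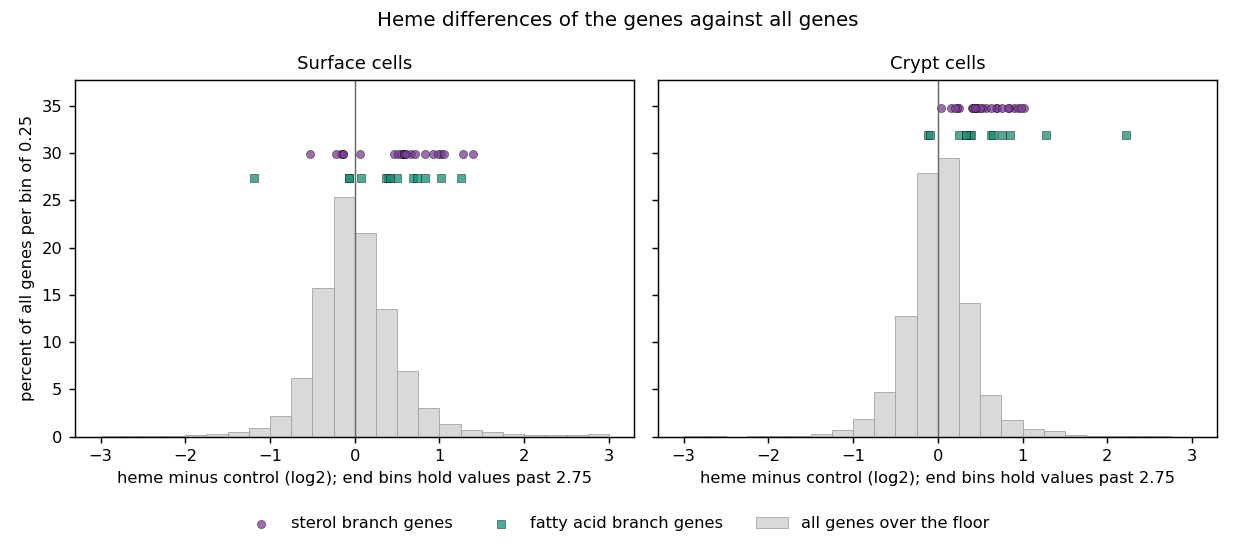
Percent of all genes over the floor per bin of 0.25 in the heme minus control difference (log2, grey bars), for surface cells (left) and crypt cells (right), with the sterol genes (circles) and fatty acid genes (squares) drawn above the bars at their own values. The sterol genes centre on 0.58 in surface cells and 0.52 in crypt cells, and the bars centre near 0.

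The promoter windows shown are those of the 4 sterol genes called higher on heme in surface cells, and that of Hmgcs1. Of the 4, Idi1 alone was also called in crypt cells. Hmgcs1 alone, of the 19 sterol genes with a window, held a sterol regulatory element core, and it was chosen after this had been seen. The windows are RefSeq sequences on GRCm38.p6, from 250 bases before to 50 bases after the annotated start, written on the strand of the gene. They lie at chr13:8885356-8885655 (plus strand) for Idi1, chr1:169969156-169969455 (minus strand) for Hsd17b7, chr19:6067801-6068100 (minus strand) for Tm7sf2, chr10:76531355-76531654 (plus strand) for Lss and chr13:119690101-119690400 (plus strand) for Hmgcs1. Capitals mark matches on either strand to CCAAT, the box bound by NF-Y, to GGGCGG, the GC box bound by Sp1, and to TCACNCCAC, the sterol regulatory element core.
Idi1: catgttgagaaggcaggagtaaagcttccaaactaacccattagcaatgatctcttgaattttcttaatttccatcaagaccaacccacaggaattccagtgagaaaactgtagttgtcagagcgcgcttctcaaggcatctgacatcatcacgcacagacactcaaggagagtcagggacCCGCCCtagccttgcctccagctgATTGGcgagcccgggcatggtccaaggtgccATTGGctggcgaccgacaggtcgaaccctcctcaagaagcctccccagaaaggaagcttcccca
Hsd17b7: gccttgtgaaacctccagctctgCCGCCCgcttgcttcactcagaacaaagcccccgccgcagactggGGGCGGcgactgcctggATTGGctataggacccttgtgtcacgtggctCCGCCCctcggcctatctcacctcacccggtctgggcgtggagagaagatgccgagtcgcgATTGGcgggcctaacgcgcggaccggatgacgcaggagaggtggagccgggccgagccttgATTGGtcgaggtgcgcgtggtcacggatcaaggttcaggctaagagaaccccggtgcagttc
Tm7sf2: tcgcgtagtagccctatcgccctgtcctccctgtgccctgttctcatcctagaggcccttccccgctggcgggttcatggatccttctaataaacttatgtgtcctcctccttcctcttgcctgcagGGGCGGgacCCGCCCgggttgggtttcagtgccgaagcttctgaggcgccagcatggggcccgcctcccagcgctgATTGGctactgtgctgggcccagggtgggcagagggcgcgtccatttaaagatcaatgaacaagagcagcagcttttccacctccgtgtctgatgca
Lss: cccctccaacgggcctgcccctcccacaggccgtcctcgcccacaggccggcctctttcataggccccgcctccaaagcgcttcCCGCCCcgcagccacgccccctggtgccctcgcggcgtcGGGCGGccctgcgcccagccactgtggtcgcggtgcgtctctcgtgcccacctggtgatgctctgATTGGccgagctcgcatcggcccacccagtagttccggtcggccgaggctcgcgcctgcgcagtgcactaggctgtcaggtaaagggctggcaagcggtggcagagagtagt
Hmgcs1: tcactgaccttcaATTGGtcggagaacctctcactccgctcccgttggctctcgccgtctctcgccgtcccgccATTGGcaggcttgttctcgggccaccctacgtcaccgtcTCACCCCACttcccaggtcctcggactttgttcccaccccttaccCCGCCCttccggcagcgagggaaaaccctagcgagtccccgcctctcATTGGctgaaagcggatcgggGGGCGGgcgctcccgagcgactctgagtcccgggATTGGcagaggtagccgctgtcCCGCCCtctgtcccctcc

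NF-Y and Sp1 are known to act beside SREBP at promoters of this pathway. A window was found for 29 of the 36 genes, 19 in the sterol branch and 10 in the fatty acid branch. Fdps, Fdft1, Sqle, Stard4, Scd1, Scd2 and Fads1 had no entry. CCAAT was present in 18 of the 19 sterol genes and in 6 of the 10 fatty acid genes, against 41.1% of 27025 genes with a window. GGGCGG was present in 18 and 5 of them, against 38.2%. A single window held both boxes in 16 of 19 sterol genes and 3 of 10 fatty acid genes, against 14.5% of all genes. The 29 genes all lay over the floor, whereas the 27025 genes were limited neither to the array nor to the floor.

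TCACNCCAC matched in 1 of 19 sterol genes and none of 10 fatty acid genes, against 1.44% of all genes. In Hmgcs1 its first base lay at -137 from the start. CACGTG, an E-box, was present in 5 and 1 of them, against 8.09%, and TGACNNNGC, the core of the antioxidant response element, in 4 and 1, against 14%. A gene with several windows counted as matching when any of them matched, and for the pair of boxes when 1 window held both. A match describes these letters and is not a bound site, and a window without a match says nothing of the factor.

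The fatty acid branch was less uniform. For heme against control in surface cells, 10 of 13 genes were above 0, against 48.5% of all genes, with a median of 0.41. Elovl1 and Scd1 were called higher, as were 3.62% of all genes, and Fads2 was called lower, where 2.01% of all genes were called lower. In crypt cells, 11 of 13 genes were above 0, against 51.5% of all genes, with a median of 0.39. Scd1 and Fads1 were called higher there, as were 1.78% of all genes. At 1.5-fold, 5 of 13 genes were higher in surface cells, against 10.5% of all genes, and 6 of 13 in crypt cells, against 5.89%.

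Scd1, which encodes the desaturase that makes oleic and palmitoleic acid, showed the largest heme difference among the 36 genes. Its level was 9.07 in heme surface cells against 8.05 in control surface cells, and 9.47 in heme crypt cells against 7.25 in control crypt cells. The heme crypt array was the highest and the control crypt array the lowest of the 4. The difference was 4.67-fold in crypt cells, which ranked 3 among 10491 genes, and 2.02-fold in surface cells, which ranked 362 among 10282. The surface difference was 0.87 to 0.98, below 2-fold, under 4 of the alternatives (32 added, quantile, cyclic loess and pan-epithelial centring). Scd2, a close relative with the same activity, had 10.53 in heme surface cells against 10.03 in control surface cells, and 11.80 in heme crypt cells against 11.15 in control crypt cells. Whether the probes of Scd1 and Scd2 each bind both transcripts was not tested.

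Fads1 and Fads2, neighbouring genes for the desaturases that make polyunsaturated fatty acids, each differed in 1 compartment. Fads1 had 6.76 in heme surface cells against 6.68 in control surface cells, and 9.20 in heme crypt cells against 7.93 in control crypt cells, a 2.42-fold difference in the crypt. Fads2 had 8.20 in heme surface cells against 9.39 in control surface cells, and 10.93 in heme crypt cells against 11.01 in control crypt cells. It was 2.28-fold lower in heme surface cells, and nearly level between diets in the crypt, where its difference ranged from -0.10 to 0.12 over the scalings.

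Among the elongases, Elovl1, which extends saturated very long chains, had 10.19 in heme surface cells against 8.94 in control surface cells, and 9.05 in heme crypt cells against 8.71 in control crypt cells. The heme surface array stood above the other 3, which lay close together. Elovl6, which extends palmitate to stearate, had 10.73 in heme surface cells against 10.32 in control surface cells, and 8.29 in heme crypt cells against 7.54 in control crypt cells. Elovl5, which extends polyunsaturated chains, had 7.52 in heme surface cells against 7.59 in control surface cells, and 9.23 in heme crypt cells against 8.90 in control crypt cells.

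The core enzymes of fatty acid synthesis were not called in either heme comparison. Fasn, the fatty acid synthase gene, came closest in crypt cells, with 8.94 in heme surface cells against 8.21 in control surface cells, and 10.34 in heme crypt cells against 9.48 in control crypt cells. Acly, which supplies cytosolic acetyl-CoA from citrate, had 8.81 in heme surface cells against 8.88 in control surface cells, and 10.60 in heme crypt cells against 10.35 in control crypt cells. Acss2, which makes acetyl-CoA from acetate, had 7.90 in heme surface cells against 7.51 in control surface cells, and 9.39 in heme crypt cells against 9.51 in control crypt cells.

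The carboxylase gene Acaca, whose enzyme makes malonyl-CoA for synthesis, differed by 0.36 in surface cells and 0.62 in crypt cells. Acacb, whose enzyme sits at the mitochondria, differed by 0.69 and 0.38. Mid1ip1, which encodes a protein that promotes assembly of the carboxylase, had 7.85 in heme surface cells against 7.02 in control surface cells, and 7.55 in heme crypt cells against 7.16 in control crypt cells. Its 2 probe sets disagreed. One differed by 1.73 in surface cells and 0.88 in crypt cells, and the other, near the floor on all arrays, by -0.075 and -0.097.

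The windows of Elovl1 and Fads2 are shown because these fatty acid genes were called in surface cells in opposite directions. They lie at chr4:118427843-118428142 (plus strand) and chr19:10101454-10101753 (minus strand) of GRCm38.p6, with capitals as above. Elovl1 has a second annotated start, whose window held 2 GC boxes and no CCAAT. In the window printed, 1 of its 5 GC boxes overlaps its CCAAT box.
Elovl1: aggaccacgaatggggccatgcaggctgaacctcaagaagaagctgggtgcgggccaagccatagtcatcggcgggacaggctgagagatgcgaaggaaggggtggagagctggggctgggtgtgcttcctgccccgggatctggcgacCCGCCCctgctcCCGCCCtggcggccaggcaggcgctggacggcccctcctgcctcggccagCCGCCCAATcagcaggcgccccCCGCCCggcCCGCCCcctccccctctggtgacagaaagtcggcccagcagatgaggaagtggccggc
Fads2: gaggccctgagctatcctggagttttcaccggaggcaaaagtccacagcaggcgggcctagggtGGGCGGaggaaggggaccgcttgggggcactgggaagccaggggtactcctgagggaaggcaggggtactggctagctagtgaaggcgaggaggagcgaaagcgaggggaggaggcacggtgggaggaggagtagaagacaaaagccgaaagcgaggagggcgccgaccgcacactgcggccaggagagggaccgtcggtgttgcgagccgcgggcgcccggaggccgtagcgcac

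On the deposited scale most fatty acid genes had lower levels in surface cells than in crypt cells. Of the 13 fatty acid genes, 7 were called lower in heme surface than in heme crypt cells, against 16.5% of all genes, and 2 were called higher, against 15.3%. On the control diet the counts were 7 lower, against 13.5% of all genes, and 1 higher, against 12%. The branch median was -1.27 on heme and -1.11 on the control diet. With arrays centred on ribosomal protein genes, all 7 lower calls on the control diet ended, with values from -0.84 to 0.037, and on heme those of Acly, Acss2, Fasn, Scd2 and Elovl5 ended, with values from -0.67 to -0.16. The branch median was then -0.16 on heme and 0.037 on the control diet, where all genes moved to medians of 1.11 and 1.17. Relative to the median of all genes, the branch median stayed between -1.33 and -1.21 on heme, and between -1.13 and -0.995 on the control diet, under every scaling run. Centring could change this value only through which genes pass the floor, because it shifts all genes of an array by 1 amount. Other sets moved between the compartments too. All 11 mitosis markers were called lower in surface cells on each diet, as were 34 of 53 ribosomal protein genes on heme and 31 on the control diet, and 6 and 7 of 11 pan-epithelial genes were called higher. Their part in the values of the fatty acid genes was not tested.

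The genes lower at the surface included those for acetyl-CoA supply and for polyunsaturated fatty acids. Fads2 was 6.61-fold lower in surface than in crypt cells on heme and 3.08-fold lower on the control diet. Fads1 was 5.44-fold and 2.38-fold lower. Acly differed by -1.78 on heme and -1.47 on the control diet, Elovl5 by -1.72 and -1.31, Acss2 by -1.49 and -1.99, Fasn by -1.40 and -1.27 and Scd2 by -1.27 and -1.11. With arrays centred on ribosomal protein genes, Scd2 differed by 0.037 on the control diet. Elovl6 went the other way and was 5.41-fold higher at the surface on heme and 6.84-fold higher on the control diet. Elovl1 was called higher on heme (1.14) and differed by 0.23 on the control diet, and its value on heme was -0.26 when arrays were centred on pan-epithelial genes.

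**Figure D4:**
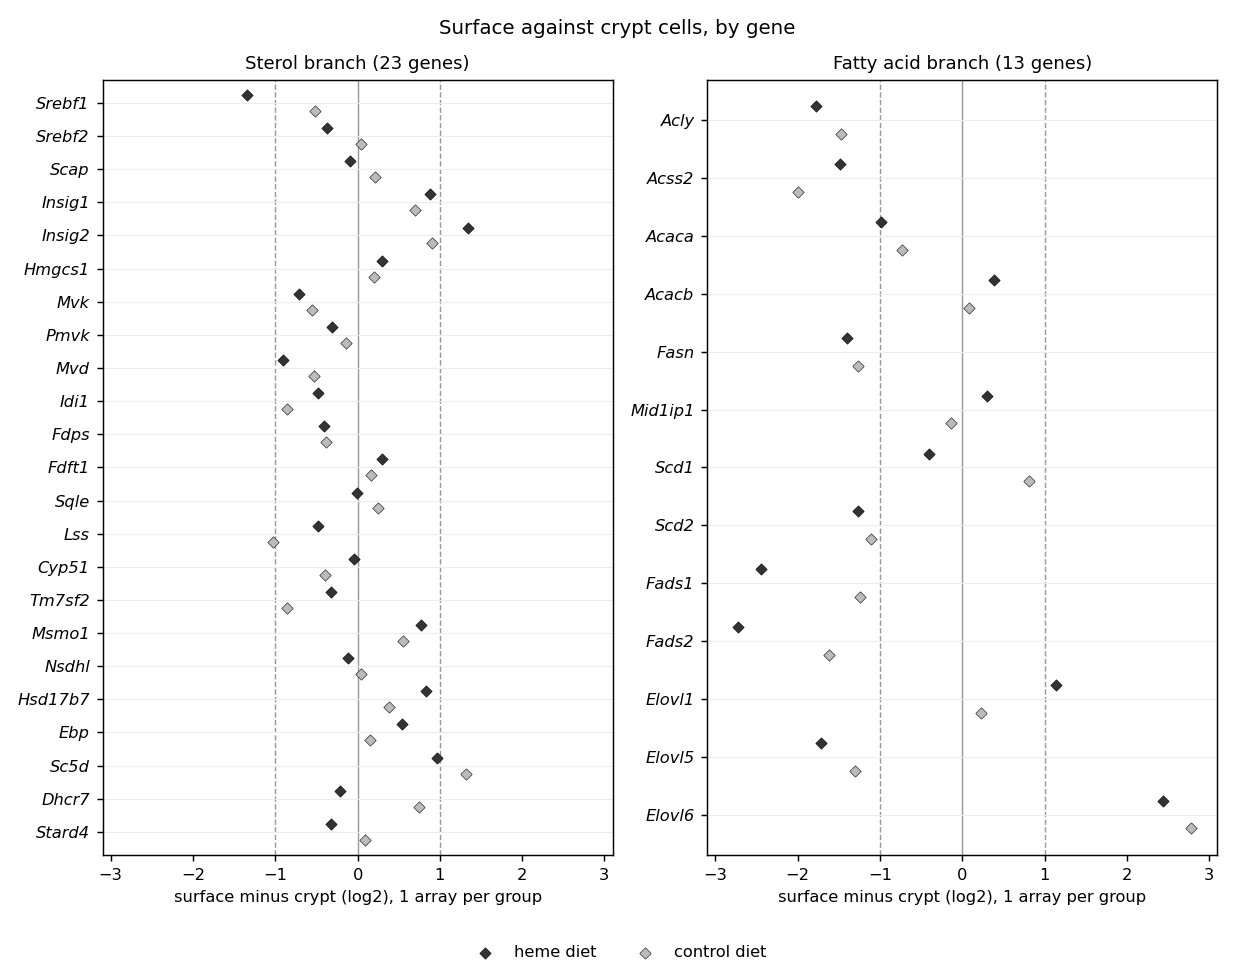
Surface minus crypt difference (log2) of each gene on heme (dark) and on the control diet (pale), 1 array per group, with dashed lines at 2-fold. As deposited, the sterol genes scatter around 0 and 7 of 13 fatty acid genes lie left of -1 on each diet, with Elovl6 at 2.43 and 2.77. Centring on other genes shifts all points together, and turns the control diet median of the fatty acid genes to 0.037.

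The sterol genes showed no common direction between compartments. Their median was -0.11 on heme and 0.092 on the control diet, and the sign of these values changed with the scaling. Insig2 was called higher in heme surface cells than in heme crypt cells (1.34, and -0.070 with arrays centred on pan-epithelial genes), and Srebf1 was called lower (-1.34, and -0.23 with arrays centred on ribosomal protein genes). On the control diet, Sc5d was called higher in surface cells (1.32, and 0.12 with pan-epithelial centring) and Lss lower (-1.03, and 0.12 with arrays centred on ribosomal protein genes). Of the mevalonate arm, 5 of 6 genes were below 0 on each diet as deposited, where 47.6% of all genes on heme and 47.4% on the control diet were above 0. This direction too depended on the scaling. These comparisons share their arrays with the heme comparisons above.

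The heme difference in surface cells was then set against that in crypt cells. For the sterol branch the median of this difference of differences was -0.021, and none of 23 genes reached 2-fold, against 5.46% of all genes. Dhcr7 (-0.96) and Srebf1 (-0.83) lay furthest from 0. Dhcr7 passed 2-fold under 4 alternatives, with -1.02 after quantile normalization, -1.05 after cyclic loess, -1.003 with ribosomal protein centring and -1.18 with pan-epithelial centring. Srebf1 passed it with pan-epithelial centring (-1.04). For the fatty acid branch the median was -0.26, and 3 of 13 genes were called lower, against 2.17% of all genes. All 3 were desaturase genes, with Scd1 at -1.21, Fads1 at -1.20 and Fads2 at -1.10. Scd2, the other desaturase gene, was at -0.16. The largest value in the opposite direction was 0.91, for Elovl1.

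A mixed list of 19 other genes, of sterol handling and of the sterol receptor LXR, had no common direction in surface cells. Of the 13 over the floor there, 7 were above 0 and 6 below for heme against control, with a median of 0.18. Abcg5 and Abcg8, whose products together export sterols into the gut lumen, were called lower, as were 2.01% of all genes. Abcg5 had 4.39 in heme surface cells against 7.47 in control surface cells, and Abcg8 had 4.68 against 5.92, so the heme values lay below the floor. In crypt cells, 4 of 11 genes over the floor were above 0, with a median of -0.096, and none was called.

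Of 22 genes over the floor from a list of 29 for lipogenesis and lipid storage, 7 were called higher in heme surface cells, against 3.62% of all genes, and none lower, against 2.01%. The median was 0.47, against -0.015 for all genes. They were led by Me1, which encodes a malic enzyme that supplies NADPH (3.96), followed by the acyltransferase gene Agpat2 (1.63), the phosphatidate phosphatase gene Lpin2 (1.58), the acyl-CoA synthetase gene Acsl5 (1.56), the fatty acid binding protein gene Fabp2 (1.32) and Acsl4 (1.21). In crypt cells Me1 was called higher (2.09), and the median was 0.25. Me1 had 7.81 in heme crypt cells against 5.72 in control crypt cells, so the control value lay below the floor. Of 5 adipocyte markers over the floor in surface cells, Cidec (1.83) and Pck1 (1.075) were called higher on heme, and the summed level of the list was 10.75 in heme surface cells and 9.77 in control surface cells. Pck1 had the highest level of this list on both surface arrays, with 9.67 on heme and 8.60 on the control diet. Adipoq, Plin1, Lep and Retn were below the floor on all 4 arrays. The part of the adipocyte markers in these values was not tested.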

How the data were processed

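RNA of the mice of a diet was pooled by compartment, per the labels' protocols, and each pool was labelled and hybridised to 1 array. The deposited values are log2 expression per probe set, made by the authors with RMA per the submitters' processing notes, whose version is not given in the sources used here. RMA includes quantile normalization, which sets the arrays' distributions nearly equal. Of 35556 probe sets, 21789 had 1 gene symbol in the platform annotation, 1621 had several and 12146 had none. Symbols were updated by gene identifier to GRCm38.p6, where 21766 matched. The genes, lists and rules were chosen with earlier results of these data known.

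Differences were computed on all genes with pandas 2.3.3 and numpy 2.4.6 (Python 3.11.15), and cyclic loess in limma 3.58.1 under R 4.3.3. Alternatives were the floor, the fold, log2 of the linear value plus 32, quantile normalization, cyclic loess, centring on 53 ribosomal protein or 11 pan-epithelial genes, and the highest probe set per gene. All 36 measured genes are named. Every array is given for those called or among the 5 largest differences of a branch in any of 5 comparisons.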

Additional observations from a re-analysis of the deposited data

Results flagged for a closer look

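With 1 array per group, the differences between compartments below were not tested. The heme difference ran in opposite directions in surface and crypt cells for 8 genes, and each value here is the surface difference minus the crypt difference. It was -0.96 for Dhcr7, -0.83 for Srebf1, -0.42 for Stard4, -0.41 for Srebf2, -0.41 for Elovl5, -0.31 for Acly, -0.30 for Scap and 0.51 for Acss2. For 5 of them 1 of the sides changed sign under another scaling, namely Srebf1, Scap, Acly, Elovl5 and Acss2.

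The surface minus crypt difference ran in opposite directions on heme and on the control diet for Dhcr7, Stard4, Srebf2 and Scap again, with the same values, and for another 4 genes. The value was -1.21 for Scd1, which was -0.40 on heme and 0.81 on the control diet. It was 0.44 for Mid1ip1, whose probe sets disagreed, -0.25 for Sqle and -0.15 for Nsdhl. Some signs rest on values close to 0, with Sqle at -0.0018 on heme and Nsdhl at 0.041 on the control diet. The signs within each diet are those of the deposited scale and change with centring. Sqle on heme also changed sign after cyclic loess, and Srebf2 and Stard4 on the control diet after quantile normalization. Dhcr7 on heme, at -0.22, was at 0.89 with arrays centred on ribosomal protein genes.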

How the results depend on the processing

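The branch medians for heme against control stayed above 0 under the 6 alternatives to scaling and to probe set choice. They ranged from 0.48 to 0.75 for the sterol genes in surface cells, 0.49 to 0.72 in crypt cells, and 0.34 to 0.57 and 0.37 to 0.60 for the fatty acid genes. Several calls lay close to 2-fold. With 32 added to the linear values, 4 genes in place of 7 were called in surface cells, against 3.82% of all genes. Lss (0.88), Tm7sf2 (0.87) and Scd1 (0.93) no longer passed. Idi1 in crypt cells was at 0.98 there and at 0.93 after quantile normalization. At 1.5-fold, 17 genes were called for heme in surface cells, against 18.5% of all genes, and 16 in crypt cells, against 11.5%. Between compartments 18 were called on heme, against 52.5%, and 17 on the control diet, against 45.4%. In the difference of differences 6 were called, against 18.3%. At 3-fold the counts were 0, 1, 5, 3 and 0 in the same order, against 1.91%, 0.448%, 15%, 10.9% and 1.39% of all genes.

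With arrays centred on ribosomal protein genes, all genes had a median of 0.13 in surface and 0.24 in crypt cells for heme. In crypt cells 9 genes in place of 3 were called, against 3.95% of all genes. Between compartments 17 were called on heme, against 59.5% of all genes, and 20 on the control diet, against 60.9%. The sterol medians became 1.00 and 1.24 and the fatty acid medians -0.16 and 0.037. Lss (0.12) and Scd2 (0.037) turned on the control diet. Centring on pan-epithelial genes called 9 in crypt cells, against 3% of all genes, and 5 in the difference of differences, against 5.67%. Between compartments this centring called 29 on heme, against 76.3% of all genes, and 25 on the control diet, against 68.1%. The sterol medians became -1.52 and -1.10, the fatty acid medians -2.68 and -2.31, and Elovl1 (-0.26) and Insig2 (-0.070) turned on heme. Both centrings shift all genes of an array by 1 amount. No floor, or a floor on all arrays compared, changed no call of these genes. No paired analysis was possible because each group has 1 array, and no replicate could be left out.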
